A study of Mus musculus with 8 samples.

Results

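The genes described here are 35 genes of the skeletal muscle lineage, measured in fetal mouse hearts. They are the muscle progenitor factors and myogenic regulators, the fast and developmental myosins, the other fast sarcomere proteins, the proteins of the neuromuscular junction and of excitation-contraction coupling, a myoblast fusion protein and a sarcomeric kelch protein. They were chosen by name out of 26590 gene symbols, and all 35 were found, in 87 transcript rows. Where a gene had several rows, the row with the highest average of the 2 genotype means was used. The levels and the spread between hearts therefore belong to how the genes and rows were selected and are given without a test.

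RNA depleted of ribosomal RNA was sequenced from the hearts of male fetuses, 4 of them *Dio3+/+* and 4 *Dio3-/-*, with 1 mouse behind each sample. All mice were C57BL/6J, and the *Dio3-/-* fetuses were deficient as a whole, and not in the heart alone, in the type 3 deiodinase, the enzyme that inactivates thyroid hormones. The titles of all 8 samples give E13.5, and the age field gives E18.5 for *Dio3-/-* hearts 3 and 4. The Methods of the study give an age between these for the sequenced hearts. The comparison asks which transcripts of the fetal heart differ when thyroid hormones are not cleared. Levels are in RPKM, that is reads scaled to transcript length and sequencing depth, and spread is given as the coefficient of variation (CV, the SD divided by the mean). *Dio3* itself had a mean of 0.35 RPKM (CV 1.23) in the *Dio3+/+* group and 0.13 RPKM (CV 0.76) in the *Dio3-/-* group, too low to serve as a check of the genotype.

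The deposited table holds the mean and the CV of each genotype (n = 4) and no value for a single heart, so the hearts with doubtful ages could not be left out, and sequencing depth per heart is unknown here. The mean and the CV still limit what the 4 hearts can be. Because no value is below 0, 4 hearts cannot have a CV above 2, which would place all of the signal in 1 heart, and each CV sets a lowest and a highest possible value for the highest heart. These limits, with the rounding of the table taken into account, are given in place of the values for each heart. Which heart of a genotype was the highest, and whether it was the same heart for all genes, cannot be told from the table.

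Skeletal and cardiac muscle are both striated, but they arise from different progenitors. Skeletal muscle forms when the paired-box factors PAX3 and PAX7 mark progenitors and the myogenic regulators MYF5, MYOD1, MYOG and MYF6 commit them, drive their differentiation and switch on the contractile genes. The heart does not use these 4 regulators and builds its sarcomere largely from cardiac isoforms of the same protein families. The myogenic regulators bind the E-box, CANNTG, and CAGCTG is one of its forms that they prefer.

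The 250 bases before the transcription start in RefSeq (GRCm38.p6) were found for 23 of the 35 genes. CAGCTG, which reads the same on both strands and is itself a CANNTG, occurred in 12 of these 23 windows (52.2%), against 12.8% of 27025 mouse promoter windows of the same length. CANNTG of any form occurred in 18 of 23 (78.3%), against 66.0% of all windows, and the consensus site of the MEF2 factors occurred in 1 (4.35%), against 0.518%. Among the 15 matched genes whose CV exceeded 1 in *Dio3+/+* hearts 46.7% held CAGCTG, and among the 8 others 62.5% did. These are matches of letters and not binding sites. The 4 windows below belong to *Myog*, a regulator of differentiation, to *Chrng* and *Mylpf*, a junctional and a contractile gene with the same wide spread as *Myog*, and to *Casq1*, which had a narrow spread and the higher mean in *Dio3-/-* hearts. They are written 5′ to 3′ on the strand of the gene, with each CANNTG in capitals.
Myog (chr1:134289754-134290003, plus strand, 2 matches): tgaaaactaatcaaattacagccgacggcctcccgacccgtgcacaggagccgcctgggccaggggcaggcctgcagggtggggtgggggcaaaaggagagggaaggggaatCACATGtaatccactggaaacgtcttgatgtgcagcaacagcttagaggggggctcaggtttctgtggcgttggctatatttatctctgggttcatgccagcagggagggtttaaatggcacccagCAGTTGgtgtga
Chrng (chr1:87205561-87205810, plus strand, 3 matches): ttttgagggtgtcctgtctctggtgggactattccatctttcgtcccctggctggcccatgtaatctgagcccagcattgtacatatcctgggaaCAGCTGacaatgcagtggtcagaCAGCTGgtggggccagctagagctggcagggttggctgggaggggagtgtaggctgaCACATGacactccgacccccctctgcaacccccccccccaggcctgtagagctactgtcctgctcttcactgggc
Mylpf (chr7:127211358-127211607, plus strand, 1 match): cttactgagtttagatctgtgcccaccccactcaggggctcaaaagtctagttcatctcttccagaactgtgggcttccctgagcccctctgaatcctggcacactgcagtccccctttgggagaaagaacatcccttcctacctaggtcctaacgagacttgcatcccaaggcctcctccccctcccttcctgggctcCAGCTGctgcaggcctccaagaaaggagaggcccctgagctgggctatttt
Casq1 (chr1:172219896-172220145, minus strand, 2 matches): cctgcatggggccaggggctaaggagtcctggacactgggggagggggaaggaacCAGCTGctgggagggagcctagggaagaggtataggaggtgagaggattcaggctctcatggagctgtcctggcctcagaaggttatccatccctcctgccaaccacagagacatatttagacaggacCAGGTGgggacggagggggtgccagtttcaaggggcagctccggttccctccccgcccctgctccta

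The mean was lower in *Dio3-/-* hearts for 29 of the 35 genes and higher for 6. The summed mean level of the 35 was 378 RPKM in *Dio3+/+* hearts, against 411 RPKM in *Dio3-/-* hearts, and most of it came from *Myl1* and *Casq1*, which were even among hearts. Of the 23 genes above 1 RPKM in a genotype, 19 had the lower mean in *Dio3-/-* hearts, against 36.1% of all genes at that level. Of these 23, 10 reached 1 RPKM through the *Dio3+/+* mean alone, so the 19 lean to this outcome by the way the genes were admitted. In *Dio3+/+* hearts the CV exceeded 1 for 22 of the 35 genes, and in *Dio3-/-* hearts for 6. Over all genes above 1 RPKM in a genotype the *Dio3-/-* share was 0.321%, but *Pax7*, *Myf6* and *Musk* of the 6 lay below that level. Among the 23 genes with a mean above 1 RPKM in a genotype, 12 (52.2%) had a *Dio3+/+* CV above 1. The same was so for 124 of all 14657 genes at that level (0.846%), of which 105 had a lower mean in *Dio3-/-* hearts. Of the 12, 10 reached 1 RPKM through the *Dio3+/+* mean alone, so the share of 52.2% is a description and not a sign of a difference between the genotypes. Below that level a CV above 1 is common, at 32.5% of 10160 genes, so the 10 members with wide spread and low level say less.

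**Figure D1:**
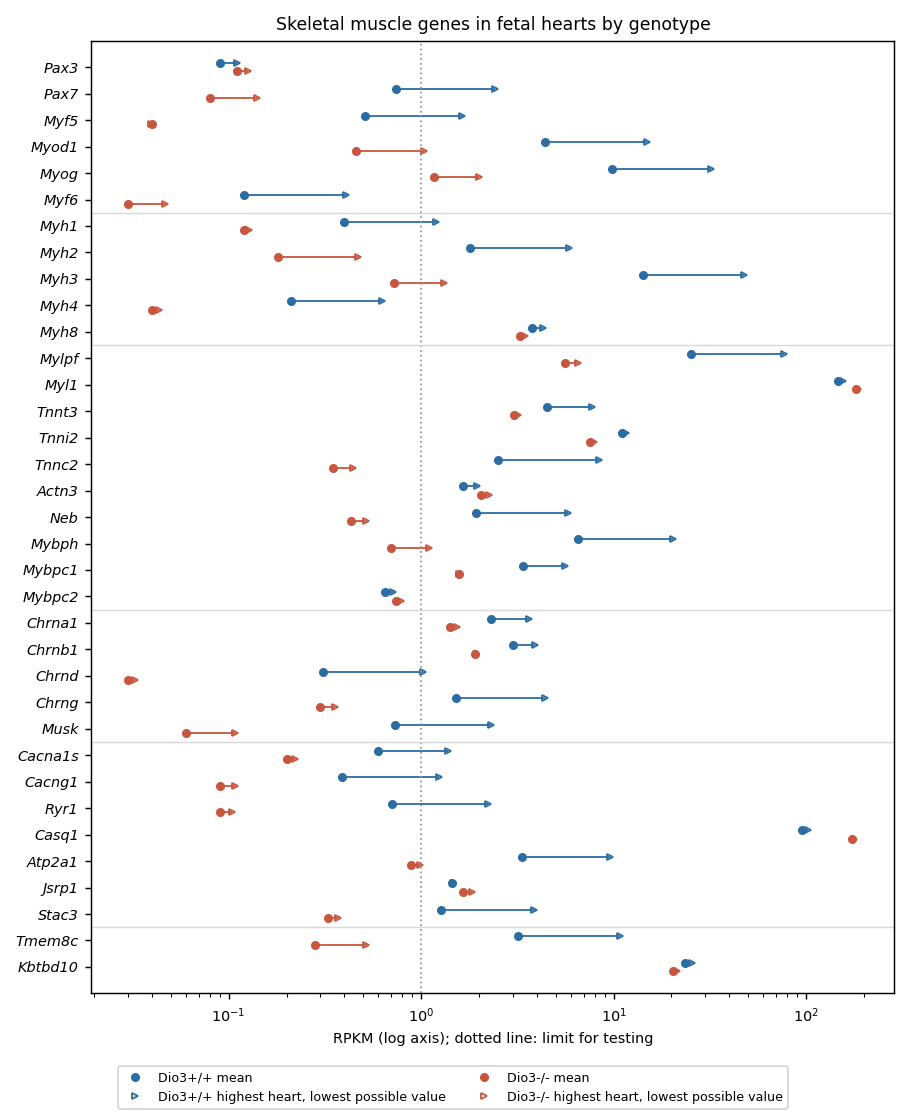
Level of each of the 35 skeletal muscle genes in RPKM (log axis) by genotype, grouped by role from regulators at the top to fusion and kelch genes at the bottom. Filled points are the mean of 4 hearts, each triangle is the lowest value that the highest of the 4 hearts can have, and the dotted line at 1 RPKM is the limit for testing; the long blue lines of genes such as *Myh3* and *Myog* contrast with the short ones of *Casq1*, *Myl1* and *Tnni2*.

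For all 22 genes with a *Dio3+/+* CV above 1, 1 heart held more than 50% of the summed *Dio3+/+* level. The smallest share that the highest heart can have held ranged from 58.2% (*Cacna1s*) upwards with a median of 80.0%, and the largest share that any of them can have held was 89.7% (*Myf6*). The 22 genes all had the lower mean in *Dio3-/-* hearts. In the 14 of them with both means at or above 0.1 RPKM, the *Dio3+/+* mean was 3.0 to 19.8 times the *Dio3-/-* mean, with a median of 6.11. The direction and the ratios follow in part from the pick, since 1 high *Dio3+/+* heart widens the CV and raises the mean alike. Of all 124 genes above 1 RPKM picked by the same CV, 105 had the lower mean in *Dio3-/-* hearts. The CV nearest above 1 was that of *Cacna1s* at 1.19, and the nearest below was that of *Tnnt3* at 0.87. In whole-heart RNA, a different number of cells of a type and a different amount of RNA per cell cannot be told apart.

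**Figure D2:**
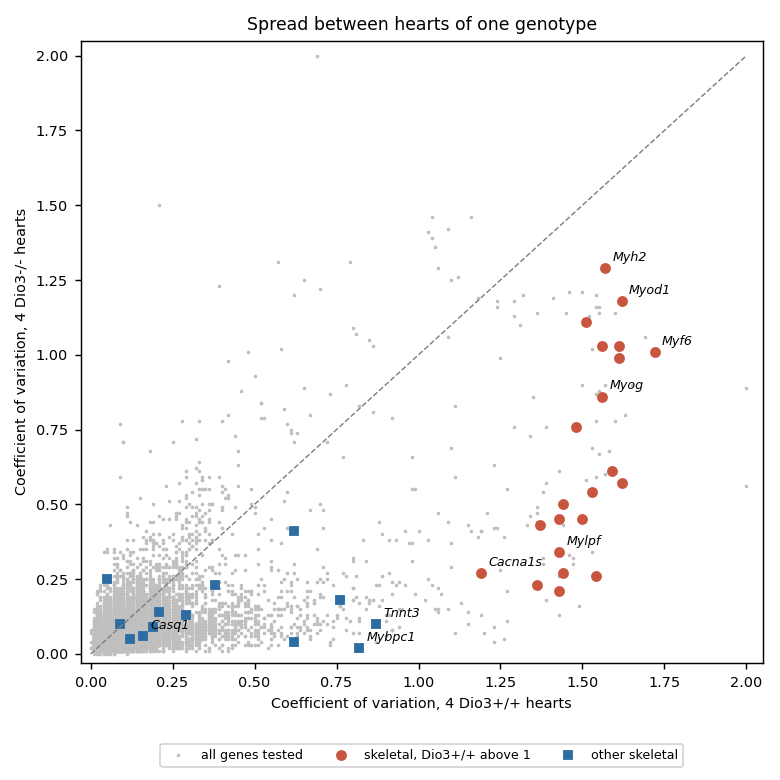
CV of the *Dio3-/-* hearts against CV of the *Dio3+/+* hearts (n = 4 each) for all 14657 tested genes (grey) and the 35 skeletal muscle genes (red circles where the *Dio3+/+* CV is above 1, blue squares otherwise). The dashed line marks equal spread; 33 of the 35 skeletal muscle genes lie below it, and the 22 red circles lie between 1.19 and 1.72 on the horizontal axis.

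The genotype difference was tested with limma across all rows above 1 RPKM, and 2.15% of those rows had an adjusted *P* value under 0.05 (1.88% higher and 0.266% lower in *Dio3-/-* hearts). Of the 35 genes, 23 could be tested, and 2 passed. *Casq1* was higher and *Tnni2* lower in *Dio3-/-* hearts. An unadjusted *P* value under 0.05 was found for 11 of the 23, 6 of them testable through the *Dio3+/+* mean alone, and for 18.8% of all tested rows. The median log2 fold change of the 23 was -1.09, with a range of -3.59 to 0.87, and the median over all tested rows was 0.04. Of the 23 genes, 10 were testable through the *Dio3+/+* mean alone, none through the *Dio3-/-* mean alone, and 13 through both, so the median of the 23 leans to lower values by the way they were admitted. Just above the limit were *Stac3* and *Chrng*, with higher means of 1.27 and 1.52 RPKM, and just below it were *Pax7* and *Mybpc2*, both at 0.74 RPKM.

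**Figure D3:**
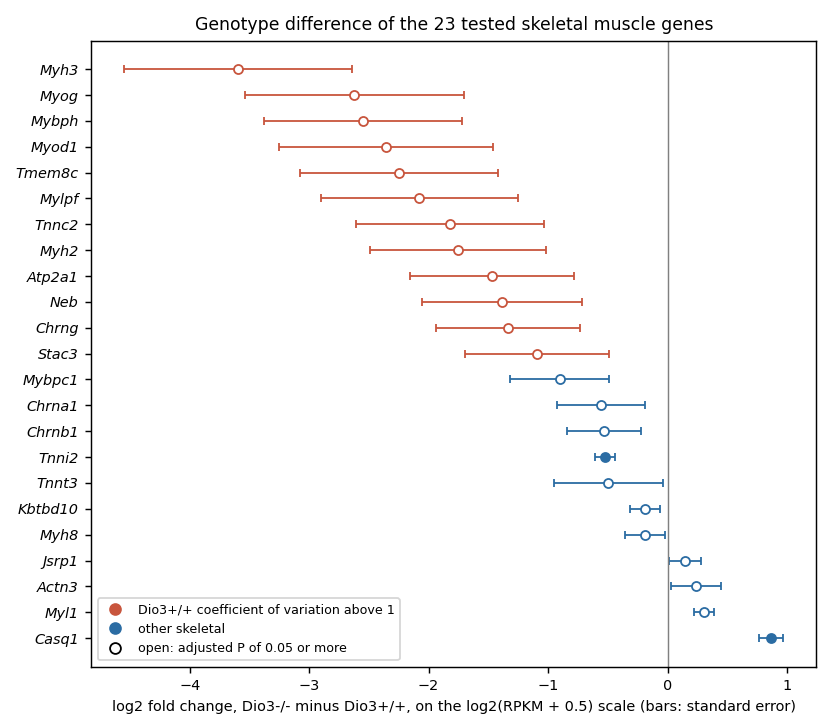
Log2 fold change (*Dio3-/-* minus *Dio3+/+*, on the log2(RPKM + 0.5) scale) of the 23 tested skeletal muscle genes, with bars of 1 standard error (n = 4 hearts per genotype). The 2 filled points, *Tnni2* and *Casq1*, have an adjusted *P* value under 0.05, and the 12 red points with the widest bars are the genes with a *Dio3+/+* CV above 1.

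Of the 6 progenitor factors and myogenic regulators, 5 had the lower mean in *Dio3-/-* hearts, 2 could be tested and neither passed. *Myog*, which drives myoblast differentiation, averaged 9.78 RPKM (CV 1.56) in *Dio3+/+* hearts, against 1.17 RPKM (CV 0.86) in *Dio3-/-* hearts. The highest *Dio3+/+* heart had 32.0 to 32.8 RPKM and the lowest at most 2.18 RPKM, while the highest *Dio3-/-* heart had 1.99 to 2.70 RPKM. The highest *Dio3+/+* heart was thus far above all *Dio3-/-* hearts, and the lowest may lie among them. The log2 fold change was -2.62 ± 0.92 (SE, n = 4 per genotype), which did not pass (adjusted *P* = 0.161 by limma). *Myod1*, which commits cells to the muscle fate, averaged 4.42 RPKM (CV 1.62) and 0.46 RPKM (CV 1.18). Its highest *Dio3+/+* heart had 14.9 to 15.2 RPKM, which was 84.6% to 85.9% of the sum over the 4 hearts. The lowest *Dio3+/+* heart, at most 0.85 RPKM, lay below the highest *Dio3-/-* heart, at least 1.03 RPKM, so the genotypes overlapped (log2 fold change -2.36 ± 0.90, adjusted *P* = 0.197 by limma).

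The other 4 genes of this class were below 1 RPKM and were not tested. *Pax7*, a factor of muscle progenitors and satellite cells, averaged 0.74 RPKM (CV 1.56) in *Dio3+/+* hearts, against 0.08 RPKM (CV 1.03) in *Dio3-/-* hearts. *Myf5*, the earliest of the regulators in the embryo, averaged 0.51 RPKM (CV 1.54) and 0.04 RPKM (CV 0.26). In both genes 1 *Dio3+/+* heart held more than 80% of the sum, with lower limits of 81.9% and 81.0%. *Myf6*, a regulator of later differentiation, averaged only 0.12 RPKM (CV 1.72) and 0.03 RPKM (CV 1.01). *Pax3*, which is also a factor of the neural crest, was the exception in direction, with 0.09 RPKM (CV 0.62) and 0.11 RPKM (CV 0.41), and its hearts overlapped between the genotypes.

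Among the skeletal myosin heavy chains, the motor proteins of the thick filament, the embryonic form was the most abundant. *Myh3* averaged 14.2 RPKM (CV 1.61) in *Dio3+/+* hearts, against 0.72 RPKM (CV 0.99) in *Dio3-/-* hearts. The highest *Dio3+/+* heart had 47.9 to 48.7 RPKM and the lowest at most 2.81 RPKM, against 1.32 to 1.81 RPKM in the highest *Dio3-/-* heart. Its ratio of means, 19.8, was the widest among these genes for which a ratio was computed, and its log2 fold change of -3.59 ± 0.95 missed the threshold (adjusted *P* = 0.081 by limma). The adult fast chains were low. *Myh2*, the chain of type 2A fibres, averaged 1.79 RPKM (CV 1.57) and 0.18 RPKM (CV 1.29), for a log2 fold change of -1.75 ± 0.74 (SE; adjusted *P* = 0.237 by limma). *Myh1* (0.40 and 0.12 RPKM) and *Myh4* (0.21 and 0.04 RPKM), the chains of the fastest fibres, were not tested, and both had *Dio3+/+* CVs of 1.43 to 1.44.

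*Myh8*, the perinatal chain, depended on the row. Of its 7 rows, 2 were listed at 0, 3 had a *Dio3+/+* CV of 1.52 to 1.54 and 2 had a *Dio3+/+* CV of 0.28 to 0.29. The row used averaged 3.79 RPKM (CV 0.29) and 3.26 RPKM (CV 0.13), for a log2 fold change of -0.19 ± 0.17 (SE; adjusted *P* = 0.601 by limma) and overlapping hearts. Another row, uc007jmn.1, averaged 3.30 RPKM (CV 1.53) and 0.30 RPKM (CV 0.61), like *Myh3*, for a log2 fold change of -2.25 ± 0.78 (SE; adjusted *P* = 0.156 by limma). The skeletal myosin genes lie side by side in 1 cluster and are closely similar in sequence. Only uniquely aligned reads were kept, and how reads were divided among these rows is not stated.

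The light chains and thin filament proteins showed both a wide and a narrow spread. *Mylpf*, the fast regulatory light chain, averaged 25.3 RPKM (CV 1.43) in *Dio3+/+* hearts, against 5.6 RPKM (CV 0.34) in *Dio3-/-* hearts. Its highest *Dio3+/+* heart had 76.4 to 79.7 RPKM and its lowest at most 7.27 RPKM, and the highest *Dio3-/-* heart had 6.53 to 8.51 RPKM. The log2 fold change was -2.08 ± 0.82 (adjusted *P* = 0.212 by limma). *Myl1*, the fast alkali light chain, was the most abundant of the 35 genes in *Dio3+/+* hearts and even among hearts, with 147 RPKM (CV 0.12) and 182 RPKM (CV 0.05), a log2 fold change of 0.31 ± 0.08 (SE; adjusted *P* = 0.0851 by limma). Another of its 3 rows, with 60.9 and 77.8 RPKM, passed (log2 fold change 0.35 ± 0.07, adjusted *P* = 0.037 by limma), so 3 of the 35 genes had a row that passed and 2 did by the row used.

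The 3 fast troponins, which make the thin filament sensitive to calcium, all had the lower mean in *Dio3-/-* hearts, and 1 passed. *Tnni2*, the fast inhibitory subunit, averaged 11.1 RPKM (CV 0.09) in *Dio3+/+* hearts, against 7.55 RPKM (CV 0.10) in *Dio3-/-* hearts. Its lowest *Dio3+/+* heart, at least 9.51 RPKM, was above its highest *Dio3-/-* heart, at most 8.74 RPKM. No heart crossed over, and the log2 fold change of -0.53 ± 0.08 passed (adjusted *P* = 0.0169 by limma). A test with unequal variances and the same adjustment gave 0.106, which ends the call. *Tnnc2*, the fast calcium-binding subunit, averaged 2.50 RPKM (CV 1.62) and 0.35 RPKM (CV 0.57), for a log2 fold change of -1.82 ± 0.79 (SE; adjusted *P* = 0.253 by limma). *Tnnt3*, the fast tropomyosin-binding subunit, averaged 4.49 RPKM (CV 0.87) and 3.04 RPKM (CV 0.10), and its hearts overlapped in all 16 rows (log2 fold change of the row used -0.50 ± 0.45, adjusted *P* = 0.612 by limma). *Tnnc2* overlaps *Ube2c* on the other strand, and since the strandedness of the counting is not stated, reads of the pair cannot be told apart. *Tnni2* overlaps no annotated gene.

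The remaining sarcomere genes divided in the same way. *Mybph*, a myosin-binding protein of the thick filament, averaged 6.54 RPKM (CV 1.48) and 0.70 RPKM (CV 0.76), with 20.4 to 21.1 RPKM in the highest *Dio3+/+* heart and a log2 fold change of -2.55 ± 0.83 (SE; adjusted *P* = 0.136 by limma). *Neb*, the giant protein along the skeletal thin filament, averaged 1.93 RPKM (CV 1.43) and 0.43 RPKM (CV 0.45), for a log2 fold change of -1.39 ± 0.67 (SE; adjusted *P* = 0.305 by limma). *Mybpc1*, the slow myosin-binding protein C, averaged 3.37 RPKM (CV 0.82) and 1.57 RPKM (CV 0.02), so the spread was again in *Dio3+/+* hearts (log2 fold change -0.90 ± 0.41, adjusted *P* = 0.280 by limma). The fast-fibre genes *Actn3*, a crosslinker of actin at the Z-disc, and *Mybpc2*, the fast myosin-binding protein C, went the other way in their means without a difference beyond the spread. *Actn3* had 1.65 and 2.04 RPKM (adjusted *P* = 0.591 by limma), and *Mybpc2*, not tested, had 0.65 and 0.74 RPKM.

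At the neuromuscular junction, the means of all 5 genes were lower in *Dio3-/-* hearts, and the 3 tested had adjusted *P* values of 0.274 to 0.470 by limma. *Chrng*, the fetal subunit of the muscle acetylcholine receptor, averaged 1.52 RPKM (CV 1.37) and 0.30 RPKM (CV 0.43), with 4.38 to 4.67 RPKM in the highest *Dio3+/+* heart and at most 0.50 RPKM in the highest *Dio3-/-* heart (log2 fold change -1.34 ± 0.60, adjusted *P* = 0.274 by limma). *Chrnd*, the delta subunit (0.31 and 0.03 RPKM), and *Musk*, the receptor kinase that gathers the receptors (0.73 and 0.06 RPKM), were below the limit for testing, with *Dio3+/+* CVs of 1.59 and 1.51. The alpha and beta subunits were less uneven. *Chrna1* averaged 2.31 RPKM (CV 0.76) and 1.41 RPKM (CV 0.18), and *Chrnb1* averaged 2.99 RPKM (CV 0.62) and 1.91 RPKM (CV 0.04), with log2 fold changes of -0.56 ± 0.37 and -0.53 ± 0.31 (adjusted *P* = 0.470 and 0.402 by limma).

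Excitation-contraction coupling links the voltage sensor of the surface membrane to calcium release from the sarcoplasmic reticulum. *Casq1*, the calcium-storing calsequestrin of fast muscle, was the gene called higher in *Dio3-/-* hearts. It averaged 94.9 RPKM (CV 0.16) in *Dio3+/+* hearts, against 173 RPKM (CV 0.06) in *Dio3-/-* hearts, a ratio of means of 1.83. The highest *Dio3+/+* heart had at most 118 RPKM and the lowest *Dio3-/-* heart at least 157 RPKM, so no hearts overlapped. The log2 fold change was 0.87 ± 0.10 (adjusted *P* = 0.00484 by limma), and the test with unequal variances gave 0.135, which ends this call too. *Casq1* overlaps the antisense gene *Gm17224*, and reads of the pair cannot be told apart. In all, 13 of the 35 genes overlap another annotated gene, among them *Mybph* with *Adora1* and *Atp2a1* with *Rabep2*, both on the other strand, and the same limit holds for their values.

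The other coupling genes were lower in level. *Atp2a1*, the calcium pump of fast fibres, averaged 3.34 RPKM (CV 1.36) and 0.89 RPKM (CV 0.23), for a log2 fold change of -1.47 ± 0.69 (SE; adjusted *P* = 0.290 by limma). *Stac3*, which couples the voltage sensor to the release channel, averaged 1.27 RPKM (CV 1.44) and 0.33 RPKM (CV 0.27), for a log2 fold change of -1.09 ± 0.60 (SE; adjusted *P* = 0.375 by limma). Neither difference was larger than the spread among the *Dio3+/+* hearts. The voltage sensor *Cacna1s* (0.60 and 0.20 RPKM), its gamma subunit *Cacng1* (0.39 and 0.09 RPKM) and the release channel *Ryr1* (0.71 and 0.09 RPKM) were not tested, with *Dio3+/+* CVs of 1.19, 1.53 and 1.5. *Jsrp1*, a protein of the junctional reticulum, averaged 1.44 RPKM (CV 0.05) and 1.65 RPKM (CV 0.25), and here the *Dio3-/-* hearts varied more (log2 fold change 0.15 ± 0.13, adjusted *P* = 0.606 by limma).

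*Tmem8c*, which encodes myomaker, the membrane protein needed for myoblast fusion, averaged 3.20 RPKM (CV 1.61) and 0.28 RPKM (CV 1.03). The highest *Dio3+/+* heart had 10.8 to 11 RPKM and the lowest at most 0.63 RPKM, against 0.52 to 0.73 RPKM in the highest *Dio3-/-* heart (log2 fold change -2.25 ± 0.83, adjusted *P* = 0.183 by limma). *Kbtbd10*, now called *Klhl41*, a kelch protein of the sarcomere, was even among hearts, with 23.4 RPKM (CV 0.19) and 20.4 RPKM (CV 0.09) and overlapping hearts (log2 fold change -0.19 ± 0.12, adjusted *P* = 0.456 by limma).

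Over all 35 genes, the hearts of the genotypes were apart for 2, *Tnni2* and *Casq1*, overlapped for 14 and could not be placed for 19. *Tnni2* and *Casq1* were among the 23 tested, and of all tested genes 3.86% had hearts that were apart. Of all tested rows 55.0% had hearts that overlapped. That share counts rows above 1 RPKM, while the 14 count genes and include some that were not tested, so they are not matched. The highest *Dio3+/+* heart exceeded all *Dio3-/-* hearts for 29 of the 35 genes. Among the 23 tested it did so for 19, against 22.3% of all tested genes. Of the 23, 10 were testable through the *Dio3+/+* mean alone, so the 19 lean to this outcome by the way the genes were admitted. The 13 genes with a *Dio3+/+* CV at or below 1 had a median CV of 0.29 in *Dio3+/+* and 0.10 in *Dio3-/-* hearts, and the 11 of them that were tested had a median log2 fold change of -0.19. Over all tested rows the median CV was 0.09 and 0.06.

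Beside their cardiac counterparts, most of the skeletal genes were a small share, and the cardiac genes did not have the wide spread. The 16 cardiac genes had CVs of 0.10 to 0.19 in *Dio3+/+* and 0.02 to 0.11 in *Dio3-/-* hearts. Their median log2 fold change was 0.30, and 4 passed, all higher in *Dio3-/-* hearts. These were *Myh6*, the alpha myosin heavy chain, *Atp2a2*, the cardiac calcium pump, *Tnni3*, cardiac troponin I, and *Ryr2*, the cardiac release channel, with log2 fold changes of 1.06 ± 0.10, 0.83 ± 0.08, 0.75 ± 0.12 and 0.59 ± 0.10 (adjusted *P* = 0.00125, 0.00205, 0.0177 and 0.0231 by limma). With unequal variances none of the 4 passed. The other 12 were *Myh7*, *Myl2*, *Myl3*, *Myl7*, *Myl4*, *Tnnt2*, *Tnnc1*, *Actn2*, *Nebl*, *Mybpc3*, *Cacna1c* and *Casq2*. As a part of the summed RPKM of a pair, *Myh3* made up 1.60% of the *Myh3* and *Myh7* pair in *Dio3+/+* hearts and 0.0872% of it in *Dio3-/-* hearts, and *Mylpf* was 0.731% and 0.138% of *Mylpf* and *Myl2*. *Ryr1* was 2.85% and 0.245% of the *Ryr1* and *Ryr2* pair. *Tnni2* was 4.38% and 1.81% of *Tnni2* and *Tnni3*, where the 2 genes were called in opposite directions. *Casq1* stood apart from these pairs with 57.3% and 67.1% of *Casq1* and *Casq2*, and *Myl1* had 17.3% and 16.7% of *Myl1* and *Myl3*.

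**Figure D4:**
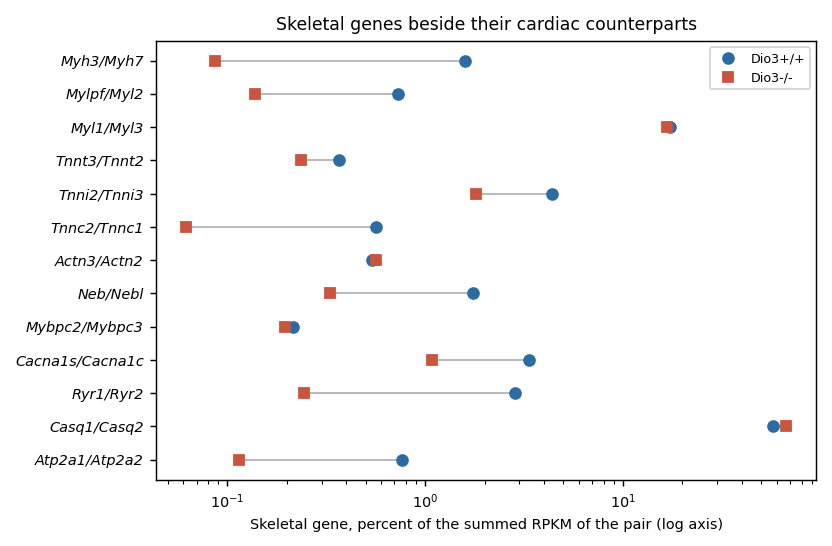
Skeletal gene as a percent of the summed mean RPKM of the skeletal and cardiac gene of a pair (log axis), for 13 pairs, in *Dio3+/+* (blue circles) and *Dio3-/-* hearts (red squares), from means of 4 hearts without an error. *Casq1* lies at 57.3% and 67.1%, and *Myh3* moves from 1.60% to 0.0872%.

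A further list of skeletal muscle genes was written without regard to how they moved, but with earlier results of these data known. It held 35 genes, of which 34 were found. Of 26 tested, 3 passed, all higher in *Dio3-/-* hearts. *Lmod3*, a nucleator of thin filaments, averaged 13.2 and 20.4 RPKM (log2 fold change 0.61 ± 0.08, adjusted *P* = 0.00699 by limma). *Klhl31*, a kelch protein of muscle, averaged 28.4 and 36.4 RPKM (0.35 ± 0.07, adjusted *P* = 0.037 by limma), and *Eno3*, the muscle enolase, averaged 67.8 and 95 RPKM (0.48 ± 0.10, adjusted *P* = 0.0485 by limma). With unequal variances none of these passed. The 3 most abundant, the glycolytic enzyme *Pgam2*, skeletal alpha-actin *Acta1* and slow troponin *Tnnt1*, averaged 149 and 192, 114 and 150, and 108 and 119 RPKM and did not pass (adjusted *P* = 0.0961, 0.0861 and 0.428 by limma). The median log2 fold change of the 26 was 0.14. In this list 10 of 34 genes had a *Dio3+/+* CV above 1, of which 4 were among the 26 tested (0.846% over all tested genes) and 6 were at or below 1 RPKM, where the share is 32.5%. *Cdh15*, the cadherin of myoblasts, was 1 of these and was named after its values were seen. It averaged 2.42 RPKM (CV 1.55) and 0.27 RPKM (CV 0.88).

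Markers of neighbouring tissues were examined for unequal amounts of tissue other than heart. For cartilage and bone, 8 of 10 markers had the lower mean in *Dio3-/-* hearts, 5 had a *Dio3+/+* CV above 1, and the summed level was 75.8 RPKM in *Dio3+/+* hearts, against 44.2 RPKM in *Dio3-/-* hearts. The 2 most abundant, the cartilage factor *Sox9* and the cartilage collagen *Col2a1*, averaged 31.2 and 24.2 RPKM (CV 0.46 and 0.07) and 15.7 and 8.40 RPKM (CV 0.52 and 0.09). Whether the RNA of these 2 genes came from cartilage or from cells of the heart itself was not tested, and the same holds for the summed level. Of the 7 tested, 1 passed, the bone matrix gene *Ibsp*, with 11.2 RPKM (CV 1.54) and 0.03 RPKM (CV 0.59), admitted through the *Dio3+/+* mean alone (adjusted *P* = 0.033 by limma, 0.0618 with no filter on low values). Liver markers went the other way, with 8 of 8 higher in *Dio3-/-* hearts and a summed level of 16 and 108 RPKM. None passed (adjusted *P* = 0.121 or above by limma). An unadjusted *P* value under 0.05 was found for 8, against 18.8% of all tested rows. The CV exceeded 1 for 4 of the 8 in *Dio3+/+* hearts and for 6 in *Dio3-/-* hearts. *Alb* and *Afp*, serum proteins of the fetal liver, were the most abundant. They averaged 5.16 and 36.1 RPKM (CV 1.29 and 1.18) and 5.11 and 44.6 RPKM (CV 1.24 and 1.18). For each of them 1 *Dio3-/-* heart held 56.7% to 69.4% of the *Dio3-/-* sum. Lung and foregut markers summed to 16.4 and 14.9 RPKM, and of the 7, 3 had the lower mean in *Dio3-/-* hearts and 4 the higher. They were led by *Nkx2-1* (8.18 and 8.35 RPKM) and *Krt8* (3.07 and 3.20 RPKM), so the lower sum came from other markers. *Sftpc* was listed at 0 in *Dio3+/+* hearts and averaged 0.26 RPKM (CV 1.47) in *Dio3-/-* hearts. Neuron and Schwann cell markers summed to 6.75 and 7.72 RPKM, and of these *Tubb3* (2.1 and 3.5 RPKM) passed. Thymus markers summed to 2.12 and 2.44 RPKM, led by *Psmb11* (1.38 and 1.45 RPKM) and *Ptcra* (0.67 and 0.89 RPKM), with *Foxn1* listed at 0 in *Dio3+/+* hearts. The part of other tissues in the levels of the skeletal muscle genes was not tested.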

How the data were processed

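RNA of 8 fetal hearts was sequenced as single-end reads after ribosomal depletion. A sequencing company aligned the reads with NovoAlign 2.08 (FastQC for quality), kept uniquely mapping reads and scaled each sample linearly to the smallest. The authors deposited 1 table of 51414 transcript rows with, for each genotype, the mean, read here as RPKM from the filter in the Methods (the table names no unit), and the CV, a ratio of SD to mean. The genome build and the strandedness of the counting are not given in the sources used here, so no coordinates of the table's rows are given. Columns with the authors' fold changes and q values, which hold their own comparison, were not used.

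Both genotype means were placed on the log2(RPKM + 0.5) scale, with the SD derived from the CV. The design allowed for values of each heart and named this calculation from summaries otherwise. limma (3.58.1, R 4.3.3) moderated the variance, with a trend on the mean, from 6 residual and 3.522 prior degrees of freedom. The Benjamini-Hochberg adjustment covered the 32703 rows above 1 RPKM in at least 1 genotype (6134 of them with an unadjusted *P* value under 0.05). The log of a mean stands for the mean of logs, which is least reliable where the CV is large. Fold changes of low genes are understated by the added 0.5. The calculation was tested on simulated data. Limits on the highest and lowest heart follow from 4 values at or above 0 with the given mean and CV, each taken with a rounding error of 0.005. Hearts are called apart or overlapping where every set of 4 values that the table allows is so. Promoter windows came from RefSeq, gene overlaps from GENCODE. Python 3.11.15, numpy 2.4.6, pandas 2.3.3 and matplotlib 3.10.9 were used.

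The 35 genes and the lists beside them were chosen with earlier results of these data known. Named were all 35 genes, the 16 cardiac counterparts, from the further list the genes that passed and the 3 most abundant, and from each marker list the 2 most abundant, unless said otherwise; a marker that this would name is not reported here. The alternatives were pseudocounts of 0.1 and 1, no filter, a mean above 5 RPKM, no trend, 1 row per gene, Welch's test from the summaries, other choices of row, centring on the median ratio, a larger CV and leaving out rows with a CV above 0.5.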

Additional observations from a re-analysis of the deposited data

Results flagged for a closer look

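For *Myf6*, a late myogenic regulator, the *Dio3+/+* mean of 0.12 RPKM and CV of 1.72 require that the highest of the 4 hearts lay away from the other 3 by at least 0.874 of the whole range, above the 95% critical value of Dixon's test for 4 samples. The test takes the values as normally distributed, and its rate of about 1 in 20 groups need not hold at this level. Of the genes at or under 1 RPKM, 32.5% had a *Dio3+/+* CV above 1. *Myf6* also had the highest *Dio3+/+* CV of the 35 genes, and few reads may stand behind its value. For the other skeletal muscle genes the mean and the CV do not settle whether the highest heart stood that far apart.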

How the results depend on the processing

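No paired analysis was possible because the table holds genotype means and not values of numbered hearts; leaving out each heart in turn was not run for the same reason. Of the 35 genes, 2 passed, and 2 passed under each other fit of the genotype difference except Welch's test from the summaries, under which 0 did (adjusted *P* = 0.106 for *Tnni2* and 0.135 for *Casq1*). Welch's test also took the cardiac genes from 4 to 0 and the further skeletal list from 3 to 0. That list gave 1 with no filter on low values, without the mean-variance trend, after centring and with each CV raised by 0.005. Of all genes, 379 passed, against 221 with no filter, 37 with Welch's test, 197 after centring on the median log2 ratio (a shift of 0.0379), 206 with the CV raised, 429 with the mean above 5 RPKM and 555 without rows of a CV above 0.5. The cause of these changes was not tested. The 39 tested genes among the 35 and their cardiac counterparts gave 358 comparisons with the alternatives, of which 352 kept the direction and the side of the threshold, 6 lost the call (all with Welch's test) and 0 reversed. With the mean above 5 RPKM, or without rows of a CV above 0.5, 23 of these genes remained to be tested. Other choices of row were tried for the spread alone. The number of genes with a *Dio3+/+* CV above 1 was 22 with either other choice of row, but the genes were not all the same. With the median row *Myh8* came in and *Myh1*, whose rows had CVs of 1.43 and 0.51, fell out. The choice of the median row was added after the data were seen.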
